A study of Monodelphis domestica and Mus musculus with 2 samples.

Results

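Oligodendrocyte precursor cells (OPC) of the primary visual cortex (V1) were examined in 1 gray short-tailed opossum and 1 mouse. The cells were those to which the authors had given the OPC subclass label among the cells of V1 that passed their filter. They numbered 100 of 4806 V1 cells in opossum and 187 of 9127 in mouse, or 287 of 13933 in all. Transcripts were counted in place by Stereo-seq, an assay that captures RNA from a tissue section on an array of barcoded spots and assigns the spots to segmented cells. The Monodelphis domestica tissue came from a male of about 6 months, and the mouse tissue from a wild-type C57BL/6J male of about postnatal day 40 (P40). Several coronal slices of the animal lay side by side on the array, and V1 was sampled as 3 regions in opossum and 4 in mouse, some of which shared a slice. With 1 animal per species, no difference was tested. Values are therefore given with exact 95% intervals, which cover counting error only.

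OPC are glial cells that persist in the adult cortex, divide at a low rate and give rise to myelinating oligodendrocytes. They are recognized by PDGFRA, the receptor through which platelet-derived growth factor maintains them, and by CSPG4 (NG2), a membrane proteoglycan. They carry the transcription factors of the oligodendrocyte lineage, receive synaptic input from neurons, and lose PDGFRA and CSPG4 when they differentiate.

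The arrays held 80369 segmented cells and 84570416 unique molecular identifiers (UMIs) in opossum, and 120239 cells and 147861707 UMIs in mouse. A UMI marks 1 captured RNA molecule. OPC had a median of 1288.5 UMIs in opossum and 1358 in mouse. Levels are given as UMIs per 10000 UMIs, after summing the cells of a label. Each label is written as the authors gave it: OD for oligodendrocytes and Astro for astrocytes.

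OPC made up similar shares of the labelled V1 in both species. They were 2.08% of V1 cells in opossum (95% Clopper-Pearson interval 1.70 to 2.53) and 2.05% in mouse (1.77 to 2.36). By region, the share was 2.21%, 1.96% and 2.06% in the opossum. In the mouse it was 2.48%, 1.84%, 1.83% and 1.67%. The ranges of the regions overlapped between species. These are shares of cells that passed the filter and are not cell densities.

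A class label (non-neuronal, glutamatergic or GABAergic) had been transferred separately from the subclass, and for many OPC the labels did not match. In the opossum only 29 OPC carried the non-neuronal class, while 70 carried the glutamatergic and 1 the GABAergic class. The mouse numbers were 129, 45 and 13. The non-neuronal share of OPC was thus 29.0% (20.4 to 38.9) in opossum and 69.0% (61.8 to 75.5) in mouse. The opossum regions lay at 26.8%, 35.3% and 24.0%, all below the mouse regions, which lay at 71.6%, 65.5%, 62.9% and 71.4%. Of all cells of non-neuronal class, OPC were 4.28% (2.89 to 6.09) in opossum and 6.89% (5.78 to 8.13) in mouse. The labels came from separate reference data sets in each species, and the part this played in the difference was not tested.

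The OPC label was checked against its 2 defining markers and a longer marker list. Pdgfra was higher in OPC of non-neuronal class than in OD, Astro and glutamatergic neurons in both species. In the opossum it reached 5.50 UMIs per 10000 (3.49 to 8.26) in OPC of non-neuronal class, from 23 UMIs in 9 cells. OD held 0.07, Astro 0.15 and glutamatergic neurons 0.12. In the mouse the level was 1.36 (0.88 to 2.00), from 25 UMIs in 16 of 129 cells, against 0.19 in OD, 0.24 in Astro and 0.14 in neurons. Cspg4 was almost unseen at this depth, with 1 UMI in opossum and 6 UMIs in mouse OPC of non-neuronal class. The check therefore rests on Pdgfra and the wider list. Since the labels had been assigned from expression, these levels describe the label and are not a result on the cells.

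The marker list held 15 genes, of which 11 had a symbol in the opossum annotation. Olig1, Sox10, Vcan and Lhfpl3 were not named there, and Olig2, Gpr17, C1ql1 and Matn4 had no UMI in opossum OPC of non-neuronal class. The summed list stood at 19.9 UMIs per 10000 (15.8 to 24.6) in these opossum cells. It stood at 2.26 in OD, 5.37 in Astro and 2.59 in glutamatergic neurons. In mouse OPC of non-neuronal class the sum was 22.8 (20.6 to 25.1), against 5.28, 6.04 and 3.61 in the same groups. The sums are not comparable between species, because different numbers of genes entered them.

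**Figure D1:**
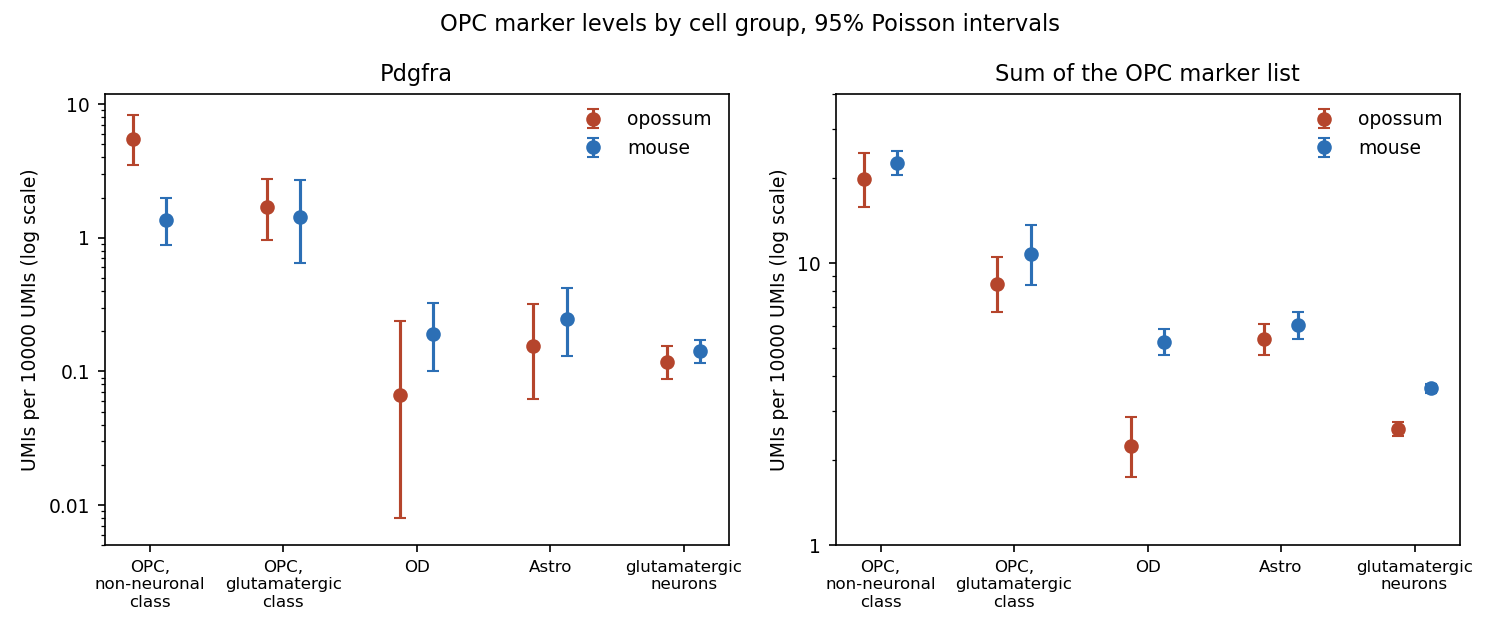
Levels of Pdgfra (left) and of the summed OPC marker list (right) in UMIs per 10000 UMIs on a log scale, for 5 cell groups of opossum (red) and mouse (blue); bars are exact 95% Poisson intervals. OPC of non-neuronal class lie above OD, Astro and neurons in both panels, at 19.9 and 22.8 for the list, where OPC of glutamatergic class lie between, at 8.48 and 10.8. For mouse Pdgfra, OPC of glutamatergic class, at 1.42, are level with the non-neuronal class, at 1.36.

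OPC of glutamatergic class had intermediate levels of the marker list. In the opossum the sum was 8.48 (6.72 to 10.6) in the 70 cells, which is below the non-neuronal class but above the 2.59 of glutamatergic neurons. Pdgfra was at 1.70 in these cells, from 16 UMIs. In the mouse the sum was 10.8 (8.35 to 13.6) in the 45 cells and 4.28 in the 13 of GABAergic class. Mouse Pdgfra did not follow this order: it was 1.42 (0.65 to 2.70) in the glutamatergic class and 1.36 in the non-neuronal class. The depth of the classes was alike, with medians in the non-neuronal and glutamatergic class of 1447 and 1247.5 UMIs per cell in opossum and 1338 and 1399 in mouse.

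Labels had been given in 3 rounds of falling strictness, and marker levels were lower in later rounds. In the opossum, 16 OPC were labelled in the first round, 63 in the second and 21 in the third. Their summed marker levels were 26.6 (20.4 to 34.2), 9.65 (7.67 to 12.0) and 7.29 (4.52 to 11.2). In the mouse the rounds held 16, 61 and 110 OPC, at 44.4 (36.6 to 53.3), 23.2 (20.2 to 26.4) and 11.2 (9.52 to 13.1). Pdgfra went from 9.02 to 1.76 and 1.74 in opossum, and from 2.34 to 1.99 and 0.63 in mouse. None of the OPC of glutamatergic class had received the OPC label in the first round in either species. Yet 60 of the 70 in opossum, and 11 of the 45 in mouse, had received the glutamatergic class in the first round.

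**Figure D2:**
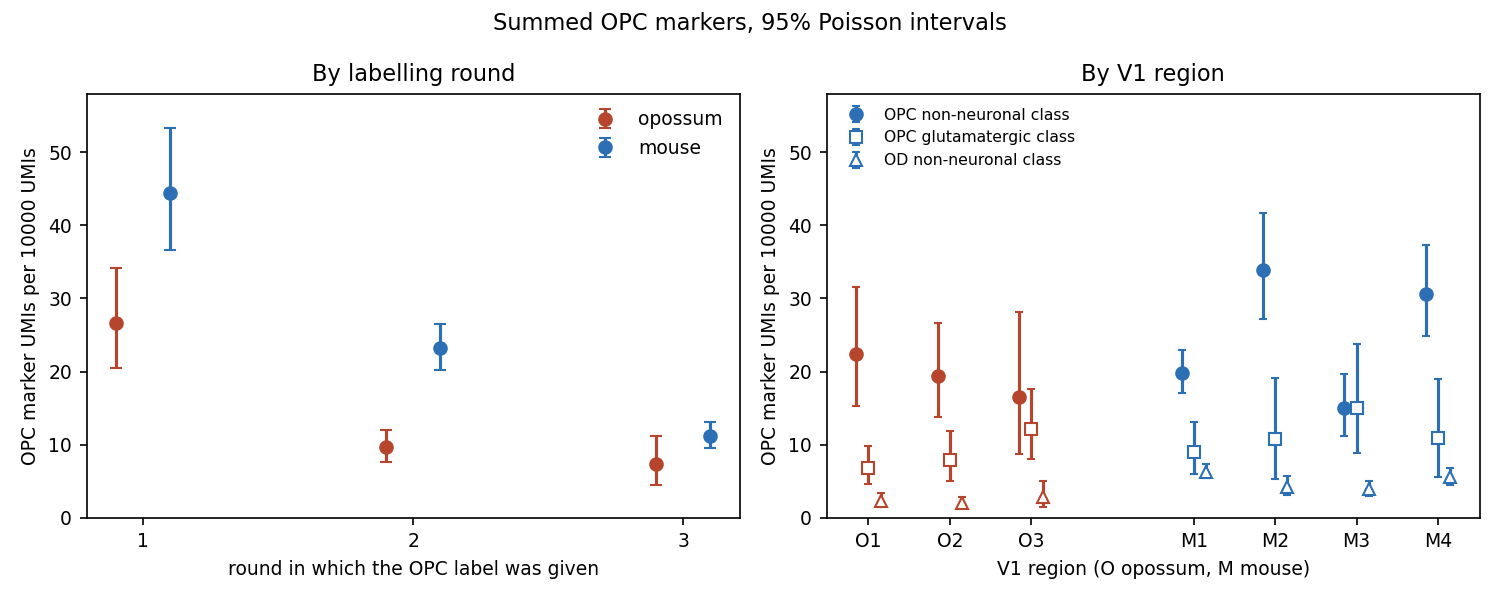
Summed OPC markers in UMIs per 10000 UMIs by the round in which the OPC label was given (left) and by V1 region (right; O1 to O3 opossum, red; M1 to M4 mouse, blue), with exact 95% Poisson intervals. First-round OPC are highest, at 26.6 in opossum and 44.4 in mouse, and OPC of non-neuronal class (filled) exceed OD (triangles) in all 7 regions.

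The marker sum was higher in OPC of non-neuronal class than in OD in every region. In the opossum it was 22.4, 19.4 and 16.5 in OPC and 2.29, 2.07 and 2.89 in OD of the 3 regions. In the mouse it was 19.8, 33.8, 14.9 and 30.6 in OPC and 6.29, 4.25, 3.90 and 5.54 in OD. The 2 cell types did not overlap across regions in either species. OPC of glutamatergic class were level with the non-neuronal class in mouse region 3, where the latter stood at 14.9 and the former at 15.05, and lower in the other regions.

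Single cells showed how thin the counts were. After thinning each cell to 300 UMIs, 11 of 97 opossum OPC had a Pdgfra UMI, or 11.3% (5.80 to 19.4), against 0.418% of glutamatergic neurons. With all UMIs the shares were 22.0% and 1.48%, at median depths of 1288.5 and 1484 UMIs. The thinned share of mouse cells was 3.24% (1.20 to 6.93) in OPC and 0.341% in neurons, and with all UMIs 12.3% and 1.54%, at medians of 1358 and 1341. Neurons lack PDGFRA, so their share gives the background. A UMI of any marker on the list was found in 32.0% of thinned opossum OPC (22.9 to 42.2) and 42.2% of thinned mouse OPC (35.0 to 49.6). In thinned neurons it was found in 7.15% and 10.1%.

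Neuronal transcripts were present in OPC at close to their level in neurons. Pan-neuronal markers, such as the synaptic protein gene Snap25, summed to 53.8 UMIs per 10000 in opossum OPC of non-neuronal class and to 59.2 in glutamatergic neurons. The mouse sums were 70.3 and 77.3. Glutamatergic markers stood at 55.8 against 60.7 and at 45.3 against 47.1. Oligodendrocyte markers reached 37.3 in opossum OPC, with 139.7 in OD and 32.7 in neurons, and 32.5 in mouse OPC, with 88.9 and 24.4. Astrocyte markers reached 19.4 in the OPC of each species, with 13.8 in opossum and 18.6 in mouse neurons. Microglial markers had no UMI for the 6 named genes in opossum OPC and stood at 2.11 in the mouse. Endothelial and mural markers were at 3.83 (2.19 to 6.22) in opossum OPC, beside 2.52 in OD and 1.39 in neurons, or 2.76 times the level in neurons (1.57 to 4.52). Of these, FLT1, a receptor for vascular endothelial growth factor, passed 2-fold over OD (3.09, 1.25 to 7.04) and over Astro (3.06, 1.28 to 6.55), on 9 UMIs in 5 cells. In mouse OPC the same list was at 2.49 (1.83 to 3.33), beside 2.91 in OD and 2.29 in neurons. The part of RNA from neighbouring cells in any OPC level was not tested.

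The next comparison asked which genes were higher in OPC than in the myelinating cells they give rise to. OPC of non-neuronal class were set against the 230 opossum and 481 mouse OD of that class. A gene entered with at least 20 UMIs in both groups together, and was called higher or lower at a 2-fold ratio of levels. Of 4110 opossum genes, 417 were higher in OPC (10.1%) and 637 lower (15.5%), with a median ratio of 0.958. Of 7766 mouse genes, 358 were higher (4.61%) and 732 lower (9.43%), with a median ratio of 0.983. The opossum group rests on 41790 UMIs and the mouse group on 184471, so the shares called are read within a species and not between species.

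PDGFRA had the highest OPC over OD ratio in the opossum, at 83.0 (20.5 to 726), with 23 UMIs in OPC and 2 in OD. By region, its level was 5.59, 6.12 and 3.80 in OPC and 0.10, 0.06 and 0 in OD, with no overlap of these values. The OPC value of region 3 rested on 3 UMIs in 6 cells (0.78 to 11.1). MYT1, a zinc finger transcription factor of neural and oligodendrocyte progenitors, followed at 22.8 (8.77 to 69.9). Its OPC level was 4.89, 3.06 and 7.60 in the 3 regions. TNR, the matrix glycoprotein tenascin-R, came next at 13.4 (4.97 to 39.7), with OPC levels of 2.10, 2.55 and 6.33 and OD levels of 0.40, 0.19 and 0. CACNG4, an auxiliary subunit of AMPA-type glutamate receptors, was at 6.61 (2.64 to 16.4). With 1 region left out, MYT1 ranged from 16.6 to 41.5 (the highest without region 2) and TNR from 8.76 (without region 3) to 24.4 (without region 1).

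Some of the other opossum genes near the top rested on 1 cell. RCAN1, a regulator of calcineurin, was at 8.42, but 8 of its 14 UMIs came from 1 cell, and the ratio was 3.84 without that cell and 1.33 without region 1. PREX2, an exchange factor for Rac, was at 7.21 with 10 of 14 UMIs in 1 cell, and at 2.21 without it and 1.60 without region 2. SNTG1, a syntrophin, was at 6.53 with 10 of 19 UMIs in 1 cell (3.30 without it), and TMCC1 at 6.31 with 8 of 14 (2.78 without it). SNTG1 was at 2.95 without region 2, and TMCC1 at 3.05 without region 1. No OPC held more than 4 UMIs of PDGFRA, and its ratio was 73.5 without the cell that held the most. SLITRK5, at 6.56, and FCHSD2, at 6.18, complete the 10 genes of highest ratio.

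In the mouse, the highest OPC over OD ratio was that of Lhfpl3, a tetraspan membrane protein gene, at 27.4 (14.1 to 59.6). Its 74 UMIs lay in 30 of 129 OPC. By region its level was 3.19, 7.22, 2.30 and 5.56 in OPC and 0.11, 0.20, 0.06 and 0.24 in OD, so that the lowest OPC region lay far above the highest OD region. Cacng4 was at 23.5 (6.91 to 124), on 19 UMIs against 3. Sox6, a SoxD transcription factor expressed in OPC, was at 15.7 (7.44 to 36.8).

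Pdgfra stood at 7.13 (3.51 to 15.2) in this comparison, a smaller ratio than in the opossum, though the difference was not tested. Its levels in the 4 mouse regions were 0.99, 1.52, 0.57 and 3.09 in OPC and 0.15, 0.10, 0.13 and 0.37 in OD. Each OPC value lay above each OD value. The OPC value of region 3 rested on only 2 UMIs in 22 cells, and its interval (0.07 to 2.08) covers all 4 OD values. Vcan, the proteoglycan versican, was at 7.70 (3.84 to 16.3). Ednrb, an endothelin receptor, was at 7.95 (3.05 to 23.0; 15.3 without region 3), Grin3a, an NMDA receptor subunit, at 7.79 (3.51 to 18.5; 3.82 without region 1 and 12.4 without region 3), and Adarb2, a relative of RNA-editing enzymes, at 7.70 (3.84 to 16.3; 4.46 without region 1). Zeb1, a zinc finger repressor, was at 6.18 (3.13 to 12.6).

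In GRCm39, Lhfpl3 lies at chr5:22951057-23480611 on the plus strand, and Pdgfra at chr5:75311994-75358876 on the same strand. The non-coding RNA 6030443J06Rik, at 8.48 the remaining gene among the 10 of highest ratio, spans chr5:22755362-23012848 on that strand and overlaps Lhfpl3. The UMIs of these 2 genes may be shared, so the ratio of 6030443J06Rik is uncertain. It was at 4.39 without region 4 and 31.2 without region 1. Cacng4 lies at chr11:107623183-107685662 on the minus strand.

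**Figure D3:**
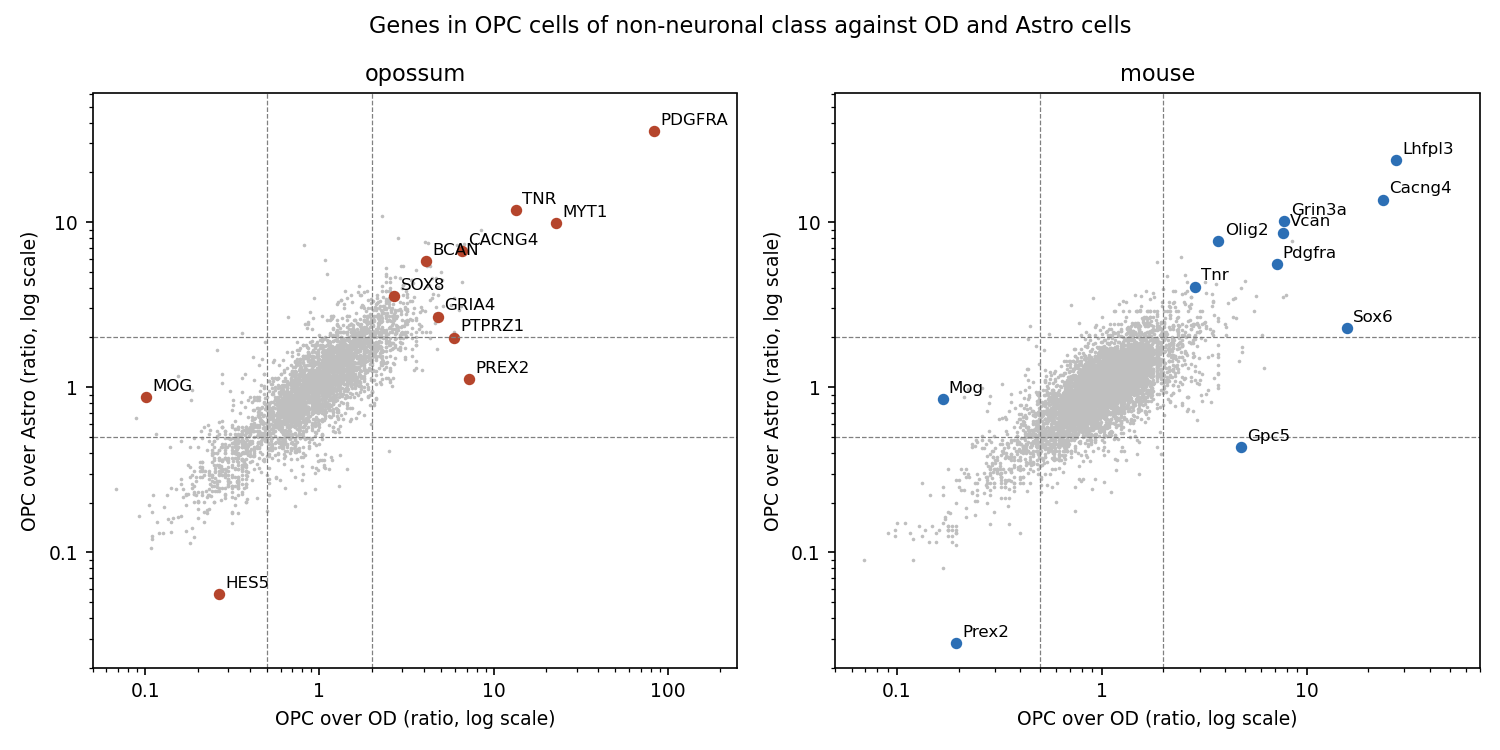
Ratio of levels in OPC of non-neuronal class over OD (x axis, log scale) and over Astro (y axis, log scale) for each gene tested in both comparisons, in the opossum (left) and the mouse (right); dashed lines mark 2-fold, and genes at 0 in a group are set to 3 UMIs. PDGFRA lies farthest out in the opossum, at 83.0 and 35.7, and Lhfpl3 in the mouse, at 27.4 and 23.7.

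Myelin genes were lower in OPC than in OD in both species. Of the 10 oligodendrocyte markers, 6 of 6 tested in opossum and 9 of 10 in mouse were lower, with median ratios of 0.183 and 0.432 against 0.958 and 0.983 for all genes. UGT8, the enzyme of galactolipid synthesis in myelin, had no UMI in opossum OPC and 245 in OD, so it was at least 11.3-fold lower, with the 0 set to 3 counts. MOG, a protein of the outer myelin surface, had 2 UMIs against 143 in the opossum (ratio 0.101, 0.0121 to 0.371; 0.290 without region 2). Mouse Mog had 5 against 111 (0.167, 0.0532 to 0.402). CNDP1, which cleaves carnosine, had 3 UMIs against 316 (0.0685, 0.0140 to 0.202).

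CSRP1 (0.0925; 0.399 without region 1) and LRRC47 (0.105; 0.383 without region 3) complete the 5 lowest opossum genes. The 5 lowest in the mouse were Prr5l, Slain1, Pdlim2, Sec24c and Gabra5, each with 1 UMI in OPC and ratios from 0.0662 to 0.0904. Their ratios moved by more than 1.5 times when a region was left out, and Slain1 was at 0.418 without region 1, still below 0.5. MBP, the abundant myelin basic protein gene, was less reduced, at a ratio of 0.321 in opossum and 0.434 in mouse. Its level in OPC, 26.8 in the opossum, was close to the 25.1 of neurons.

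Against Astro cells (359 opossum and 429 mouse cells), 611 of 5550 opossum genes were higher in OPC (11.0%) and 870 lower (15.7%). In the mouse 322 of 7157 were higher (4.50%) and 695 lower (9.71%). The median ratios were 1.03 and 0.980. PDGFRA again led in the opossum at 35.7 (14.8 to 98.5), from 23 UMIs against 7. Its Astro levels by region were 0.24, 0.15 and 0, all below those in OPC.

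UST, which sulfates chondroitin and dermatan sulfate chains, followed at 20.2 (7.48 to 59.7), then TNR at 11.8 (4.95 to 28.2) and MYT1 at 9.83 (5.0 to 19.2). UST was also 15.6 times its OD level, on 19 UMIs in both groups, which is below the minimum of 20. RCAN1 was at 8.95 (4.08 without the cell with most UMIs, and 2.08 without region 1), RPS6KA6 at 7.97 (3.88 without it, and 2.29 without region 2), PIP4P1 at 7.47 (4.57 without region 2), FCHSD2 at 7.24, PLPPR1 at 6.79 (3.64 without it) and CACNG4 at 6.64.

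In the mouse, Lhfpl3 was at 23.7 (11.8 to 53.8; 36.3 without region 1), Cacng4 at 13.7 (4.55 to 55.3), Grin3a at 10.1 (3.94 to 30.5; 3.87 without region 1 and 29.5 without region 3) and Vcan at 8.64 (3.94 to 20.9). Olig2, the basic helix-loop-helix factor that specifies the lineage, was at 7.68 (2.85 to 24.0; 17.7 without region 1). Pdgfra was at 5.54 (2.73 to 11.8), with Astro levels of 0.30, 0.31, 0.18 and 0.11 that lay below every OPC region. The interval of OPC region 3, on 2 UMIs, covers all of these Astro levels. With 1 region left out, Pdgfra ranged from 3.59 (without region 4) to 8.60 (without region 1), and Cacng4 from 7.89 to 45.2 without the same regions. The other genes of highest ratio were 6030443J06Rik at 7.68, Sh3d19 at 6.12, Zfhx2os at 5.76 and Usp10 at 4.80. Without 1 region, 6030443J06Rik ranged from 4.30 (region 4) to 22.1 (region 2), Sh3d19 from 3.45 (region 2) to 15.3 (region 4) and Zfhx2os from 2.82 (region 1) to 10.0 (region 4). Zfhx2os is a non-coding RNA that overlaps Thtpa on its own strand and Zfhx2 on the other, so its UMIs are uncertain too.

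The genes lowest against Astro cells included genes that astrocytes are known to express. HES5, an effector of Notch signalling, had 1 UMI in opossum OPC and 195 in Astro (0.0557, 0.0014 to 0.314; 0.260 without region 1). SLC4A4, a sodium bicarbonate cotransporter, had 2 against 180 (0.121, 0.0145 to 0.442). PARD3B (0.0787; 0.451 without region 1), ATP5F1D (0.107) and PIGT (0.114) lay between, but the last 2 were at 0.624 and 0.673 without region 2 and no longer called. In the mouse Prex2 had 1 UMI against 102 (0.0282; 0.107 without region 2) and Mertk, a receptor for phagocytosis, 1 against 82 (0.0351; 0.230 without region 1). Cables1, Lyrm4 and Daam2 followed at 0.0670 to 0.0873, but reached 0.346 without region 1, 0.306 without region 2 and 0.484 without region 1, in that order. Of the astrocyte markers, 8 of 10 tested in opossum and 6 of 9 in mouse were lower in OPC.

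The genes of OPC biology were then taken list by list. On the OPC marker list, 4 of 4 tested opossum genes and 8 of 10 mouse genes were higher than in OD, with median ratios of 10.0 and 5.98, where 10.1% and 4.61% of all genes were. Against Astro the numbers were 3 of 5 and 8 of 10. Nothing is read from these counts, because the label was itself assigned from expression and because a gene such as PDGFRA reached the minimum of 20 UMIs through its OPC counts. Another 7 of the 11 named opossum genes were too low to compare with OD.

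Transcription factors of the lineage differed in which members could be counted. In the opossum, SOX8 (2.69, 1.57 to 4.46) and ZEB1 (3.21, 1.21 to 7.75) were higher than in OD among 3 tested. Both were higher than in Astro among 4, at 3.57 and 2.17. In the mouse, Olig2 (3.71, 1.74 to 7.92), Sox6, Sox5 (2.51) and Zeb1 were higher than in OD among 5, and Olig1 (2.09), Olig2 and Sox6 (2.28) than in Astro among 6. Sox5 was higher than OD in only 1 of 4 regions. Sox6 over Astro was at 1.88, and no longer called, without the cell that held 7 of its 38 UMIs. By region its OPC level was 0.99, 4.56, 1.15 and 4.02, beside 0.91, 0.94, 0.81 and 0.95 in Astro. Olig1, Olig2 and Sox6 are also on the OPC marker list. Olig1, which both stages express, was at a ratio of 0.998 to OD (0.586 to 1.63). Mouse Sox10 had 5 UMIs and was too low to test.

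Among growth factor receptors and Notch pathway genes, Pdgfra was the only gene higher than in OD in either species, among 4 tested in opossum and 5 in mouse. ERBB4, a neuregulin receptor, differed in placement. It was lower than in OD in the opossum, at 0.235 (0.0852 to 0.522) on 6 UMIs against 184. In the mouse Erbb4 was at 1.53 (1.08 to 2.15) against OD and 2.94 (1.94 to 4.45) against Astro. FGFR2 had 1 UMI in opossum OPC and was lower than in both comparators, at 0.225 and 0.181, with intervals that include 1. Opossum EGFR (0.339, on 1 UMI) and mouse Fgfr1 (0.267, 0.0832 to 0.662) were lower than in Astro. The median ratio of this list to OD was 0.633 in opossum and 1.53 in mouse.

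Proteoglycan and matrix genes were higher than in OD in 5 of 6 tested in the opossum, with a median ratio of 3.38. BCAN, the brain proteoglycan brevican, was at 4.10 (2.40 to 6.85) against OD and 5.78 (3.41 to 9.58) against Astro. PTPRZ1, a receptor phosphatase that carries chondroitin sulfate, was at 5.90 (3.41 to 10.1) against OD. XYLT1, which starts glycosaminoglycan chains, was at 2.66 (0.944 to 6.60), and the syndecan SDC3 at 2.04 (1.01 to 3.84). In the mouse 5 of 9 were higher than in OD: Vcan, Ptprz1 (4.82, 3.28 to 7.12), Tnr (2.85, 2.16 to 3.75), Xylt1 (3.61, 2.20 to 5.91) and the glypican gene Gpc5 (4.78, 3.07 to 7.51). Among all genes 10.1% in opossum and 4.61% in mouse were higher than in OD. Ptprz1, Tnr and Vcan are also on the OPC marker list, so nothing is read from these counts.

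Astro cells shared part of this list. Gpc5 was lower in mouse OPC than in Astro, at 0.436 (0.316 to 0.590). Against Astro, 3 of 9 mouse genes and 3 of 6 opossum genes were higher, with medians of 1.03 and 2.33. Among all genes 4.50% in mouse and 11.0% in opossum were higher. Mouse Bcan was at 1.42 against OD and 0.808 against Astro and was not called, whereas opossum BCAN passed 2-fold in both comparisons. The difference between the species was not tested.

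Adhesion and synapse-like genes were higher than in OD in 7 of 10 tested in opossum and 7 of 14 in mouse, with medians of 2.42 and 2.30. Among all genes 10.1% and 4.61% were higher, with medians of 0.958 and 0.983. Nothing is read from these counts: CACNG4 and mouse Lhfpl3 are on the OPC marker list, and XYLT1 on the preceding list. Opossum LUZP2 was called on 9 UMIs, and was at 1.45 without the cell that held 4 of them. Mouse Nxph1, a secreted neurexophilin, was at 5.65 (3.16 to 10.3), and Dscam, an adhesion molecule, at 2.73 (1.93 to 3.84). In the opossum, DSCAM was at 2.34 (1.11 to 4.59). Many of these genes are also neuronal: opossum OPCML stood at 15.3 in OPC and 21.4 in neurons. Against Astro, 3 of 11 opossum and 7 of 13 mouse genes were higher, where 11.0% and 4.50% of all genes were. Opossum LUZP2 was lower (0.413, 0.186 to 0.797). Opossum PCDH15 was called higher on 6 UMIs, and was at 1.31 without the cell that held 4 of them.

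Ion channel and transmitter receptor genes gave few calls, 3 of 13 higher than in OD in opossum and 1 of 18 in mouse. Among all genes 10.1% in opossum and 4.61% in mouse were higher, and the mouse count is near that share. In the opossum the AMPA receptor genes GRIA3 (2.16, 1.03 to 4.21) and GRIA4 (4.81, 3.02 to 7.57) and the NMDA receptor gene GRIN2A (3.17, 1.71 to 5.64) were higher than in OD and in Astro. GRIA4 stood at 8.14 in opossum OPC and 5.03 in neurons. Mouse Gria4 stood at 0.705 in OPC, 1.37 in OD and 2.19 in neurons. The mouse gene that was higher was Grin3a, in 3 of 4 regions. Against Astro, Gria4, Gabrb1, Kcnj10 and Scn1a were lower in mouse OPC among 17 tested, and SCN3A was lower than in both comparators in the opossum, on 1 UMI. Kcnj10, a potassium channel gene of glia, was lower in mouse OPC than in OD (0.232, 0.0462 to 0.719, on 3 UMIs) but was at 1.71 (0.726 to 3.60) in the opossum.

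Genes of committed precursors and of the cell cycle were sparse. Of the former, Itpr2 and Tnr were higher and Sirt2 lower in mouse OPC than in OD among 6 tested, with Itpr2, an intracellular calcium channel gene, at 5.56 (2.34 to 13.8). In the opossum TNR was the gene called among 3, and TCF7L2 was lower than in Astro (0.479, on 3 UMIs). Mouse Pcna, the replication clamp, was higher than in OD at 2.94 (1.52 to 5.59) and than in Astro at 2.38 (1.23 to 4.57), on 19 UMIs. The proliferation genes Mki67, Cdk1 and Top2a had no UMI in mouse OPC of non-neuronal class. Cycling cells were thus not detectable by these genes at this depth.

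The lists were then compared between species over the 2544 gene symbols tested in both. Genes at least 2-fold higher in OPC than in both OD and Astro numbered 183 in opossum (7.19%) and 21 in mouse (0.825%). The 2 lists had 6 genes in common, which are 3.28% of the opossum list and 28.6% of the mouse list. They were PDGFRA, TNR, CACNG4, SNTG1, CHST11 and ZDHHC14. Nothing is read from the number in common. The label was assigned from expression, PDGFRA, TNR and CACNG4 are on the OPC marker list, and PDGFRA reached the minimum of UMIs through its OPC counts. CHST11, a sulfotransferase that acts on chondroitin chains, was at 3.31 and 2.60 in opossum and at 2.70 and 2.56 in mouse, against OD and Astro. ZDHHC14, a palmitoyltransferase, was at 2.31 and 3.10 and at 2.15 and 2.75. Opossum ZDHHC14 rested on 8 UMIs in OPC, and its interval against OD, 0.900 to 5.28, includes 1. Opossum SNTG1 was at 3.08 against Astro. Without the cell that held 10 of its 19 UMIs it was at 1.56, below the 2-fold needed for this list. Mouse Sntg1 was at 3.54 (2.25 to 5.55) and 2.75 (1.75 to 4.31). Opossum and mouse TNR differed in size more than in direction, at 13.4 and 2.85 against OD. MYT1, Lhfpl3 and Vcan were not among the symbols tested in both.

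OPC of all classes were spread over the sampled depth of V1, whereas OD of non-neuronal class lay mostly deep. The regions drawn by the authors began below layer 1, which was thus not sampled. The median depth of OPC below the top of the region, scaled to the tallest region, was 352.7 µm in opossum (interquartile range 212 to 489) and 431.0 µm in mouse (226 to 577). By region the medians were 354, 377 and 304 µm in opossum, and 422, 383, 438 and 485 µm in mouse. OD of non-neuronal class, 230 of the 565 opossum and 481 of the 588 mouse OD, had medians of 575.4 and 653.1 µm. Every region's median for these OD was deeper than every region's median for OPC of all classes within its species. For OPC of non-neuronal class this held in the mouse, but in opossum region 2 they lay at 531 µm, deeper than OD of region 1 at 527 µm. Astro cells of non-neuronal class had medians of 374.5 and 341.4 µm, and all V1 cells 381.9 and 349.3 µm.

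In the opossum the pooled depth differed between the classes of OPC, but the order was not the same in every region. The 29 of non-neuronal class had a median of 430.6 µm and the 70 of glutamatergic class 345.7 µm. The former varied widely, with 309, 531 and 332 µm in the 3 regions. The latter lay at 367, 292 and 304 µm, so that in region 1 they were the deeper class. The gap was widest in region 2, which held 12 OPC of non-neuronal class. In the mouse the classes had medians of 429.7 and 428.6 µm. Over the 5 equal depth bins, from top to bottom, opossum OPC were spread as 19.0%, 22.0%, 28.0%, 18.0% and 13.0%. Mouse OPC were spread as 18.2%, 16.0%, 20.9%, 26.2% and 18.7%. The deepest bin held 44.3% of opossum and 56.5% of mouse OD of non-neuronal class.

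**Figure D4:**
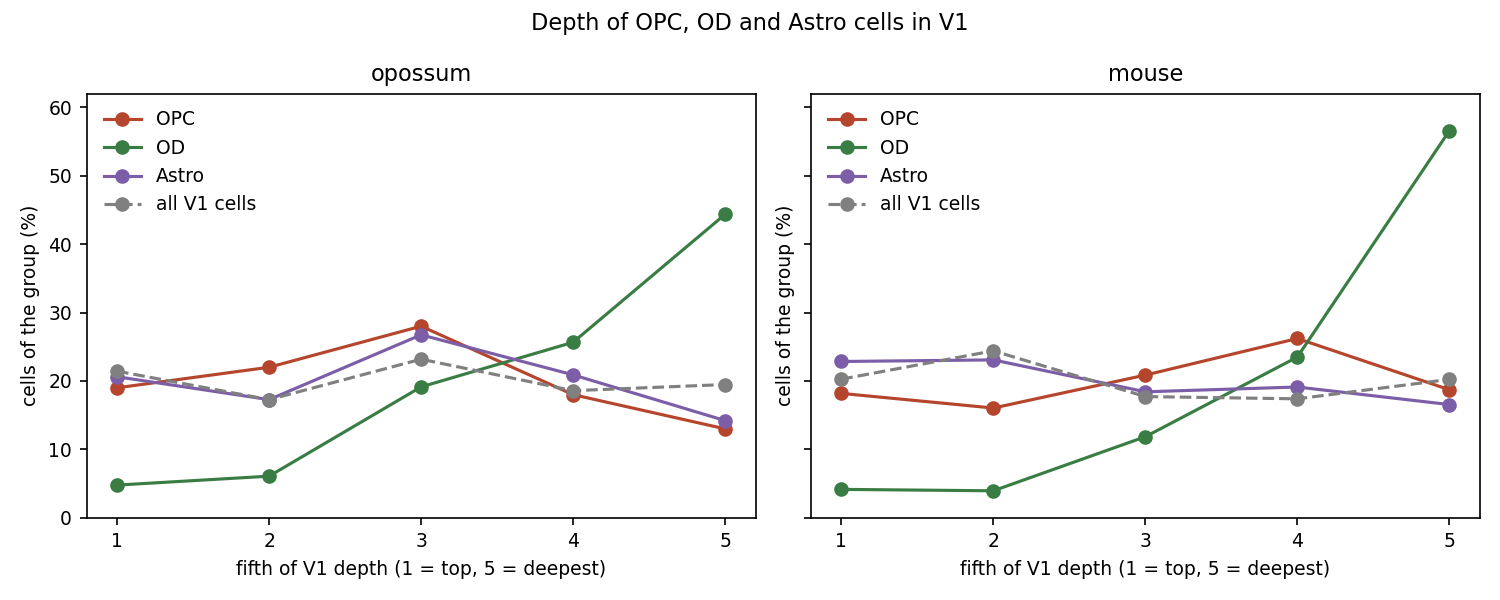
Share of the cells of each group (%) in 5 equal bins of the sampled V1 depth, from the top (1) to the deepest (5), for OPC, OD, Astro and all V1 cells in the opossum (left) and the mouse (right). Layer 1 was not sampled. OPC are of all classes, while OD and Astro are of non-neuronal class. OD concentrate in the deepest bin, with 44.3% and 56.5%, while OPC hold 13.0% and 18.7% there, close to or below all V1 cells with 19.5% and 20.2%.

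Myelin transcripts in OPC followed depth as they did in other cells. Mbp in OPC was at 21.0 UMIs per 10000 above the middle of the depth axis and 36.8 below it in opossum, and at 8.10 and 11.9 in mouse. In neurons the values were 16.8 and 33.1, and 6.35 and 10.5. Pdgfra in OPC stood at 3.12 and 2.85 in opossum and at 1.40 and 1.21 in mouse above and below the middle.

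OPC of all classes had few OPC beside them. The nearest cell was another OPC for 2.00% of opossum OPC (0.243 to 7.04) and 2.14% of mouse OPC (0.586 to 5.39). These shares were close to the 2.08% and 2.05% that OPC made up of all V1 cells. Among OD of non-neuronal class, the nearest cell was an OD of any class for 46.5% in opossum and 28.7% in mouse. Among Astro cells of non-neuronal class, it was an Astro cell of any class for 35.1% and 16.8%. These labels are also more common: over all classes, OD were 11.8% and 6.44% of V1 cells, and Astro 10.3% and 4.90%. The median distance from an OPC to the nearest OPC was 58.3 µm in opossum and 52.7 µm in mouse, with 13.4 and 11.7 µm to the nearest cell of any kind. For OD of non-neuronal class the distance to the nearest OD of that class was 18.8 and 19.1 µm. Between Astro cells of that class it was 21.5 and 28.6 µm. These distances also depend on how many cells carry each label. The nearest cell had the glutamatergic class for 75 of 100 opossum OPC and 60.4% of mouse OPC, beside 78.1% and 68.4% of all V1 cells in that class.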

How the data were processed

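Stereo-seq UMI counts per gene and segmented cell were deposited by the authors, with labels, regions and cell outlines, for 1 array per species that held several coronal slices, cut at 10 µm. The authors ran SAW 7.1.2 against a custom opossum genome with extended 3′ ends and mouse GRCm39, and kept cells with at least 50 genes and 100 UMIs. They transferred class and subclass labels from single-nucleus data of the same species by the vote of 50 nearest neighbours in 3 rounds, requiring 100%, 100% and 75% agreement for class and 100%, 75% and 50% for subclass. The OPC cells and all gene lists were chosen with earlier results of these data known.

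Counts were summed over cells of a label and given per 10000 UMIs with exact Poisson 95% intervals, and shares with exact Clopper-Pearson intervals. Ratios used OPC, OD and Astro cells of non-neuronal class and genes with at least 20 UMIs in both groups together, and 0 was set to 3 UMIs. The ratio intervals are exact and conditional on the total. With 1 animal per species no count model was fitted, and cells and regions were not treated as replicates. Named genes were those of the fixed lists and the 10 highest and 5 lowest ratios per comparison with at least 10 UMIs in the higher group. Doublets were not called. Cells were thinned to 300 UMIs for shares of cells with a UMI. Depth used 2 array units per µm and was scaled to the tallest region. Opossum symbols were taken from the feature names, which gave 11598 of 30613 features a symbol, and the mouse table held 61317 features. Mouse coordinates are from GENCODE M39; opossum coordinates were not used here. Zfhx2os names more than 1 mouse feature, and these were kept apart. Whether SAW counted by strand is not given in the sources used here, so genes that overlap cannot be told apart. The ratio and interval code was tested on simulated data. The alternatives tried were OPC of every class, minimums of 50 UMIs or 1 UMI, means over cells, stricter cell filters, labels of the first and second rounds alone, unthinned shares, and leaving out each region. Scripts ran under Python 3.11.15 with scipy 1.17.1, numpy 2.4.6, shapely 2.1.2, pandas 2.3.3 and matplotlib 3.10.9.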

Additional observations from a re-analysis of the deposited data

Results flagged for a closer look

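For 2 genes on the fixed lists or among the named genes, the same comparison passed 2-fold in opposite directions in the 2 species, and in neither case was the difference between species tested. PREX2 stood at 7.21 in opossum OPC over OD, on 14 UMIs in each group (3.19 to 16.3), and at 0.195 in the mouse, on 1 UMI against 19 (0.0047 to 1.23). In the opossum, 10 of the 14 OPC UMIs lay in 1 cell. GRIA4 stood at 2.68 in opossum OPC over Astro, on 34 UMIs against 138 (1.78 to 3.92), and at 0.493 in the mouse, on 13 against 76 (0.251 to 0.894). In glutamatergic neurons the level of this gene was 5.03 UMIs per 10000 in the opossum and 2.19 in the mouse.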

How the results depend on the processing

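Of 134 alternative values for counts, shares, marker levels and depth, 105 stayed close to the main value and 29 did not. Close meant within 1.5 times for numbers of genes, and within the interval for shares and marker levels. Depth was judged by its spread over regions. Values of these kinds have no direction that could turn, so a change of direction was not tested for them. The number of OPC genes past 2-fold moved most with the filter. With at least 50 UMIs, 75 opossum genes were higher and 191 lower than in OD, 153 higher and 347 lower than in Astro, and in the mouse 69 and 192, and 48 and 138. With no filter beyond 1 UMI, 2679 (OD) and 2523 (Astro) opossum genes were higher, and in the mouse 2571 higher and 1271 lower than in OD, and 2330 and 1469 than in Astro. Fewer genes are tested under the first filter and more under the second. With OPC of every class, 333 opossum genes were higher than in Astro. Leaving out each V1 region in turn gave 212 to 371 opossum genes higher and 331 to 585 lower than in OD, and 576 to 752 lower than in Astro, the lowest each time without region 2. The mouse marker sum ranged from 17.5 to 20.9 without 1 region. This sum over OPC of every class was 12.0 in the opossum and 18.7 in the mouse. It was 19.9 and 22.8 in the non-neuronal class, 14.1 in the opossum as a mean over cells, and 27.7 in the mouse for labels of the first 2 rounds. Mouse OPC labelled in those rounds were 1.02% of the V1 cells that got a subclass in those rounds or got none at all. Of these OPC, 80.5% had the non-neuronal class. Opossum depth was 430.6 µm in the non-neuronal class. The share of opossum OPC with a Pdgfra UMI was 24.1% in the non-neuronal class after thinning and 22.0% with all UMIs, and in the mouse 12.3% with all UMIs. The ratios without the cell that held most UMIs were chosen after seeing the data. No paired analysis was possible because the species share fewer than 2 replicate numbers. Depth limits every gene with under 20 UMIs, Cspg4 among them.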

Other observations

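A further label, of cluster or type, had been given to part of the OPC. In the mouse, 73 of 187 OPC carried the type OPC_A, with a marker sum of 25.8 UMIs per 10000. Another 80 carried none, with 13.1, and 18 carried the type Micro, with 12.7 and 10 UMIs of microglial markers. In the opossum, 51 of 100 OPC carried a cluster label, of which 46 had the glutamatergic class. Their marker sum was 8.77 and Pdgfra was at 1.70, beside 15.5 and 4.37 in the 49 without one.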
